A study of Mus musculus with 12 samples.

Results

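The genes described here are 10 genes of mast cells and basophils: Prss34, Mcpt8, Cpa3, Cma1, Gzmb, Fcer1a, Ms4a2, Hdc, Tph1 and Gata2. They were taken by gene symbol from a table of counts for 19910 genes, and all 10 were found. The table holds RNA-seq counts of 12 libraries from bone marrow of female C57BL/6J mice aged 6 to 10 weeks, which was transduced with retrovirus. The 4 groups of 3 libraries each received empty vectors (empty), SETBP1 with the protein change D868N and an empty vector (SETBP1), NRAS with the change G12D and an empty vector (NRAS), or both mutants (SETBP1+NRAS). The study's title and design text put the question as what mutant SETBP1 adds to the effect of NRAS. SETBP1 encodes a nuclear protein mutated in myeloid leukemia, and NRAS is a GTPase that signals to the MAPK cascade. The labels call all samples, those with empty vectors included, murine leukemia cells. All groups share the strain, the tissue and exposure to virus collected from producer cells at 48 and 72 h. The labels do not name the promoter that drives the introduced genes, the share of cells that carried them, or the time from transduction to RNA. Nor do they tie replicates to separate mice or cultures, so p-values measure only the spread between these libraries, which may be technical.

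Basophils and mast cells are granulocytes that carry the high-affinity IgE receptor. When antigen crosslinks IgE on that receptor, the cells release granules that hold histamine, serotonin, proteoglycan and proteases, and make eicosanoids and cytokines. The lineages arise in marrow from progenitors that depend on GATA2; basophils mature in the marrow, whereas mast cells mature in tissues. Among the genes here, Prss34 and Mcpt8 encode serine proteases of mouse basophils, Cma1 encodes a mast cell chymase, Cpa3 encodes a granule carboxypeptidase, and Gzmb encodes granzyme B, a protease best known from cytotoxic lymphocytes. Fcer1a and Ms4a2 encode the alpha and beta chains of the IgE receptor. Hdc encodes the enzyme that makes histamine, and Tph1 encodes the enzyme that starts serotonin synthesis outside the brain.

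The promoters of 5 of these genes are shown because the group means of all 5 fell in the order empty, SETBP1, NRAS, SETBP1+NRAS and because GATA factors act in this lineage. The 250 bases before each RefSeq transcription start (GRCm38.p6) are printed 5′ to 3′ on the gene's own strand, and capitals mark the GATA words found by a search on both strands for AGATAA and for the word AGATAG, with a T also allowed as the first base of each. They lie at chr3:20242182-20242431 (minus strand) for Cpa3, chr1:173227230-173227479 (minus strand) for Fcer1a, chr19:11623720-11623969 (minus strand) for Ms4a2, chr14:56085198-56085447 (minus strand) for Mcpt8 and chr17:25298144-25298393 (plus strand) for Prss34.
Prss34: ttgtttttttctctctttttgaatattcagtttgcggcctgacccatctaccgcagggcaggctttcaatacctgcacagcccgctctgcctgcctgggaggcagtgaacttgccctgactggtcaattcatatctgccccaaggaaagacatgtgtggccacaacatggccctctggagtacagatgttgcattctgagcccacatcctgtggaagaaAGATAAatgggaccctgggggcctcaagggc
Cpa3: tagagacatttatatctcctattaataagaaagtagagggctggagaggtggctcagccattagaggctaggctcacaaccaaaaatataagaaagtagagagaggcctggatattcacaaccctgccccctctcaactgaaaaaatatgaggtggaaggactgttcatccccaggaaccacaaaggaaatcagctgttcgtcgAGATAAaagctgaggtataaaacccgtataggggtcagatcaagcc
Fcer1a: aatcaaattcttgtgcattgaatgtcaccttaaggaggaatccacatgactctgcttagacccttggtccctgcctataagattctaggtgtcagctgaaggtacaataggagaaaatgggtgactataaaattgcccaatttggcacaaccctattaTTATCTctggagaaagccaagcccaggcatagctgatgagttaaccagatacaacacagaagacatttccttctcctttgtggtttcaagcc
Ms4a2: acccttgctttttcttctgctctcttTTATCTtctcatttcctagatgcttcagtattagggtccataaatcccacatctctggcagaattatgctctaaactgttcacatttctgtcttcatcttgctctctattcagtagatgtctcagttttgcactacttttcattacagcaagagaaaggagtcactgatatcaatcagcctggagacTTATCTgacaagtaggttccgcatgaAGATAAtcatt
Mcpt8: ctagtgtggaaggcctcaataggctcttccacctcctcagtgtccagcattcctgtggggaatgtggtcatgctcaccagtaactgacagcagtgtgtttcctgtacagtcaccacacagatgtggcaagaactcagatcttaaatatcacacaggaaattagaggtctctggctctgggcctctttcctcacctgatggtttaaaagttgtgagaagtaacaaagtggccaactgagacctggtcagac
The word nearest the start began at -31 in Prss34, -46 in Cpa3, -92 in Fcer1a and -11 in Ms4a2, and Ms4a2 held 3 words, while Mcpt8 held none. Over windows from 250 bases before to 50 bases after the start, 7 of the 10 genes had a GATA word, against 29.8% of 32851 such windows in the RefSeq table. The other 3 with a word were Cma1, Tph1 and Hdc, and none was found in the windows of Gzmb, Mcpt8 and Gata2. Tph1 and Gata2 each have a pair of windows, so that 7 of 12 windows held a word. The E-box word CACGTG, or the variant word CATGTG, searched in the same way, occurred in Fcer1a and Prss34 and in 20.4% of all windows. A match describes these letters only, and whether a factor binds there was not tested.

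In the GENCODE M21 annotation of the same assembly (mm10), the 10 genes are protein-coding and no exon of theirs overlaps an exon of another gene. Cma1 (chr14:55941451-55944675), Mcpt8 (chr14:56082166-56085273) and Gzmb (chr14:56258838-56262260) lie on the minus strand in 1 cluster of protease genes. On the minus strand too are Cpa3 (chr3:20215620-20242181), Fcer1a (chr1:173221284-173227214), Ms4a2 (chr19:11615523-11623719), Hdc (chr2:126593667-126619299) and Tph1 (chr7:46644641-46672537). Prss34 (chr17:25298394-25300165) and Gata2 (chr6:88193891-88207032) lie on the plus strand. Of the possible 50-base reads of Ms4a2, 2.10% also match Ms4a4b, and of those of Cma1, 5.38% match Gm48934. Of the other 8 genes, no more than 0.141% of such reads match another gene.

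Libraries held 7085894 to 8864919 counts over the listed genes. SETBP1 replicate 3 stood apart: its log2 values correlated with its group at 0.946 and 0.953, against 0.984 to 0.991 for the other 10 pairs of replicates. Calls that change without it are given beside each gene or comparison. Nras, the targeted gene, measured 1520 ± 166 normalised CPM (counts scaled by library size and composition to the unit CPM) in NRAS and 1559 ± 35.8 in SETBP1+NRAS (SD, n = 3), against 86.5 ± 5.75 in empty. Setbp1 had no count in the 3 empty and 3 NRAS libraries, 5 to 7 counts in each SETBP1 library and 11 to 17 in each SETBP1+NRAS library. The counts of an introduced gene from another species could be partial.

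The label of mast cells and basophils was set against defining markers of each. The basophil proteases Prss34 and Mcpt8 were abundant. Cd200r3, a surface gene listed for basophils and mast cells together, measured 40.8 ± 5.62 normalised CPM in empty (SD, n = 3). Itga2, another surface gene so listed, stood at 1.04 ± 0.382 in empty, with at most 15 counts in a library, and was not tested. The cytokine gene Il13 had at most 3 counts in a library. Markers of mature mast cells were mixed. Mcpt1, Mcpt9, Cma2, Mrgprb1 and Mrgprb2 had no count in the 12 libraries, and Mcpt2, Mcpt4 and Tpsab1 had at most 2 counts in a library. The mast cell tryptase Tpsb2 was present, at 7.74 ± 1.99 in empty, 11.3 ± 4.05 in SETBP1, 3.70 ± 1.19 in NRAS and 6.65 ± 3.17 in SETBP1+NRAS, and so was the tryptase Tpsg1, at 12.3 ± 1.57 in empty. Kit, the stem cell factor receptor of mast cells and progenitors, was present at 65.3 ± 10.00 in empty. The chymase Cma1 stood at 7.15 ± 3.93 in empty, near these tryptases and far below Mcpt8 at 629.8 ± 29.2. In bulk RNA, fewer cells of a type and less RNA per cell cannot be told apart, which holds for every result below.

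Together the 10 genes took 0.332 to 0.340% of all counts in the empty libraries, 0.177 to 0.253% in SETBP1, 0.0760 to 0.129% in NRAS and 0.0421 to 0.0574% in SETBP1+NRAS. The 4 ranges did not overlap. The make-up of this share moved as well. Of the 10 genes' summed normalised CPM, Prss34 held 54.0 to 55.1% in empty and 54.7 to 63.5% in SETBP1. Its share was 23.1 to 23.9% in NRAS and 13.7 to 19.7% in SETBP1+NRAS. Hdc held 6.70 to 7.26% in empty, 5.27 to 7.54% in SETBP1, 30.5 to 31.4% in NRAS and 37.8 to 40.1% in SETBP1+NRAS.

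The basophil protease Prss34 had the highest level per length of the 10 genes in the empty group, at 1441 ± 31.4 normalised CPM per kilobase of exon (SD, n = 3). Its normalised CPM was 1777, 1782 and 1714 in empty replicates 1 to 3, 1432, 930 and 1404 in SETBP1, 185, 216 and 304 in NRAS, and 107, 59.4 and 117 in SETBP1+NRAS. The groups stepped down without overlap in that order. Against empty, the log2 change was -0.49 (SE 0.22) in SETBP1, which did not pass the test (adjusted p = 0.147, edgeR quasi-likelihood test with Benjamini-Hochberg adjustment, as are all adjusted p-values below unless another tool is named). Prss34 fell by 2.90 (SE 0.24) on the log2 scale in NRAS (adjusted p = 8.91e-07) and fell by 4.22 (SE 0.26) in SETBP1+NRAS (adjusted p = 2.58e-08), a level 18.6-fold lower than in empty. SETBP1+NRAS was lower than NRAS by a further log2 change of -1.32 (SE 0.24, adjusted p = 0.00964). Without NRAS replicate 3, the highest of its group, that last change was -1.09 with an adjusted p of 0.0553.

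Mcpt8, the other basophil protease, gave the same order. Normalised CPM was 626, 661 and 603 in empty, 474, 409 and 456 in SETBP1, 158, 178 and 257 in NRAS, and 95.4, 64.8 and 110.1 in SETBP1+NRAS. No library of a group overlapped the next group. Mcpt8 fell by 1.67 (SE 0.18) on the log2 scale in NRAS (adjusted p = 1.08e-05) and fell by 2.81 (SE 0.19) in SETBP1+NRAS (adjusted p = 7.19e-08). SETBP1+NRAS lay below NRAS by a log2 change of -1.13 (SE 0.18, adjusted p = 0.00553). In SETBP1 alone the log2 change was -0.50 (SE 0.17, adjusted p = 0.0690); it was past the threshold without SETBP1 replicate 3 (adjusted p = 0.0370), NRAS replicate 3 (0.0398) or SETBP1+NRAS replicate 2 (0.0432).

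Cpa3, the carboxypeptidase shared by both cell types and their progenitors, fell in each mutant group. Its normalised CPM was 183, 160 and 174 in empty, 98.3, 65.3 and 51.7 in SETBP1, 32.6, 44.5 and 82.0 in NRAS, and 24.5, 15.7 and 25.7 in SETBP1+NRAS. SETBP1 and NRAS overlapped, and both lay between empty and SETBP1+NRAS. Against empty the log2 change was -1.26 (SE 0.29, adjusted p = 0.0137) in SETBP1, -1.70 (SE 0.29, adjusted p = 5.46e-04) in NRAS and -2.97 (SE 0.31, adjusted p = 5.38e-06) in SETBP1+NRAS. The SETBP1 call was lost without empty replicate 1 (-1.21, adjusted p = 0.0564) or without empty replicate 3 (-1.25, adjusted p = 0.0564). NRAS against SETBP1 gave -0.43 (adjusted p = 0.251), which became a call without NRAS replicate 3 (-0.91, adjusted p = 0.0181) or without SETBP1 replicate 3 (-0.62, adjusted p = 0.0469).

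Cma1, the chymase, rested on few reads. Its raw counts were 42, 92 and 38 in empty, 7, 9 and 0 in SETBP1, 17, 12 and 11 in NRAS, and 5, 7 and 10 in SETBP1+NRAS. Every empty library lay above every other library. A count of 0 in SETBP1 replicate 3 allows up to 0.355 normalised CPM, the value of 3 counts. Cma1 fell by 3.40 (SE 0.62) on the log2 scale in SETBP1 (adjusted p = 0.00524), fell by 2.02 (SE 0.55) in NRAS (adjusted p = 0.0115) and fell by 2.84 (SE 0.59) in SETBP1+NRAS (adjusted p = 0.00163). The NRAS call was lost without empty replicate 2 (-1.47, adjusted p = 0.0897) and without NRAS replicate 3 (-1.88, adjusted p = 0.0536). Levels in the 3 mutant groups did not differ past the threshold from each other.

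Gzmb had another order of groups. Normalised CPM of Gzmb was 37.6, 33.9 and 34.4 in empty, 3.01, 10.5 and 0.947 in SETBP1, 45.6, 56.8 and 77.8 in NRAS, and 21.1, 26.2 and 19.5 in SETBP1+NRAS. The 4 groups did not overlap, with NRAS the highest and SETBP1 the lowest. Gzmb fell by 2.91 (SE 0.46) on the log2 scale in SETBP1 against empty (adjusted p = 0.00272). It was higher in NRAS than in SETBP1 by 3.67 (SE 0.46, adjusted p = 3.68e-05) and higher in SETBP1+NRAS than in SETBP1 by 2.24 (SE 0.47, adjusted p = 0.00173). Neither NRAS (0.77, SE 0.38, adjusted p = 0.138) nor SETBP1+NRAS (-0.66, SE 0.39, adjusted p = 0.197) passed the test against empty. SETBP1+NRAS against NRAS did not pass either (-1.43, SE 0.39, adjusted p = 0.0876). The 3 SETBP1 libraries held 25, 80 and 8 counts. Without SETBP1 replicate 3, each of those 3 comparisons was called, with adjusted p of 0.00433, 0.0162 and 1.97e-04, and without SETBP1 replicate 2 with adjusted p of 0.0187, 0.0340 and 0.00629.

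**Figure D1:**
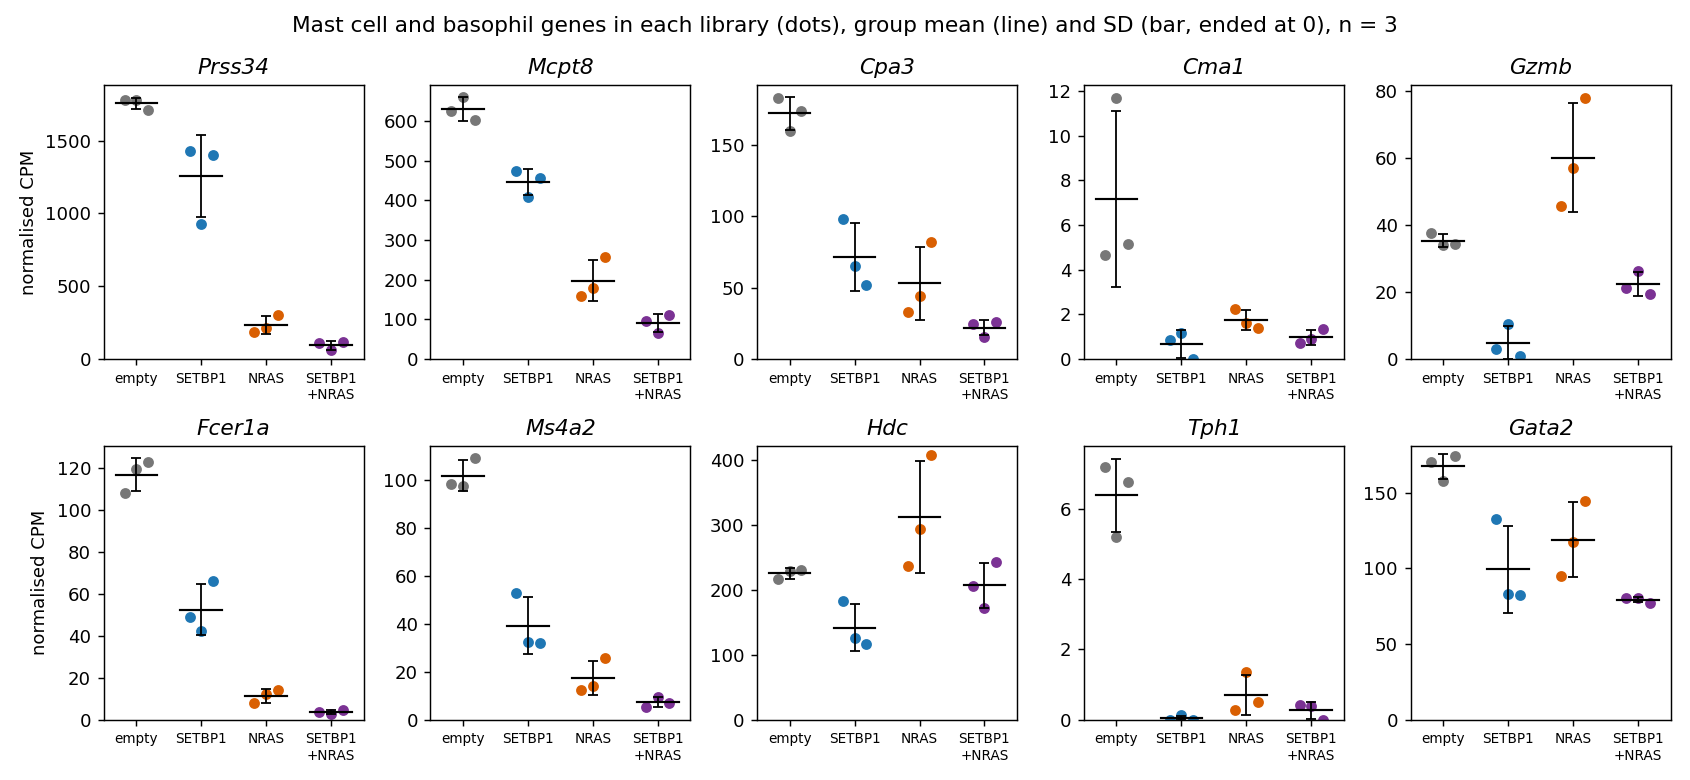
Normalised CPM of each of the 10 genes (vertical axes, linear and separate for each gene) in every library, by group on the horizontal axis, with the group mean as a line and the SD as a bar (n = 3). Prss34, Mcpt8, Fcer1a and Ms4a2 step down from empty through SETBP1 and NRAS to SETBP1+NRAS, while Gzmb and Hdc are highest in NRAS.

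Fcer1a, the IgE-binding chain of the receptor, had the largest fall in NRAS and in SETBP1+NRAS among the 8 genes with counts in every library. Its normalised CPM was 108, 119 and 123 in empty, 49.0, 42.2 and 66.1 in SETBP1, 7.80, 12.3 and 13.9 in NRAS, and 3.78, 2.56 and 4.57 in SETBP1+NRAS. The groups again stepped down without overlap. Against empty the log2 change was -1.15 (SE 0.19, adjusted p = 0.00303) in SETBP1, -3.36 (SE 0.21, adjusted p = 7.12e-08) in NRAS and -5.00 (SE 0.25, adjusted p = 3.80e-09) in SETBP1+NRAS, or 32.1-fold lower. SETBP1+NRAS was lower than NRAS by a log2 change of -1.64 (SE 0.27, adjusted p = 0.00607), which limma-voom placed at an adjusted p of 0.0611.

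Ms4a2, the signal-amplifying beta chain, had the same order of groups as Fcer1a. The normalised CPM of this chain was 98.3, 97.5 and 109 in empty, 53.0, 32.5 and 32.1 in SETBP1, 12.6, 14.2 and 25.6 in NRAS, and 5.45, 9.47 and 7.13 in SETBP1+NRAS. No group overlapped the next in that order. The log2 change against empty was -1.37 (SE 0.24, adjusted p = 0.00451) in SETBP1, -2.54 (SE 0.26, adjusted p = 6.54e-06) in NRAS and -3.78 (SE 0.29, adjusted p = 2.10e-07) in SETBP1+NRAS. SETBP1+NRAS against NRAS gave -1.24 (SE 0.30) with an adjusted p of 0.0503, just short of the threshold. Fcer1g, the gamma chain that the IgE receptor shares with other Fc receptors, measured 381 ± 20.8, 531 ± 154, 436 ± 10.4 and 543 ± 34.2 normalised CPM in empty, SETBP1, NRAS and SETBP1+NRAS (SD, n = 3). It rose by 0.51 on the log2 scale in SETBP1+NRAS against empty (adjusted p = 0.0123), where the chains Fcer1a and Ms4a2 fell.

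Hdc, the histamine enzyme, was highest in NRAS and lowest in SETBP1. Normalised CPM of Hdc was 216, 229 and 230 in empty, 183, 126 and 116 in SETBP1, 237, 294 and 407 in NRAS, and 206, 172 and 242 in SETBP1+NRAS. NRAS lay above empty and SETBP1 below it, while SETBP1+NRAS overlapped empty. Hdc fell by 0.67 (SE 0.19) on the log2 scale in SETBP1 (adjusted p = 0.0357) and was higher in NRAS than in SETBP1 by 1.14 (SE 0.19, adjusted p = 4.69e-04). Against empty it did not pass the test in NRAS (0.47, SE 0.19, adjusted p = 0.0741) or in SETBP1+NRAS (-0.12, SE 0.19, adjusted p = 0.643). The SETBP1 call was lost when any 1 of 6 libraries was left out, with adjusted p up to 0.115 without empty replicate 3. The NRAS change was called without NRAS replicate 1 (0.64, adjusted p = 0.0252), SETBP1 replicate 1 (adjusted p = 0.0365) or SETBP1 replicate 3 (adjusted p = 0.0142).

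Tph1, the serotonin enzyme, had counts of 65, 41 and 50 in empty, 0, 1 and 0 in SETBP1, 2, 10 and 4 in NRAS, and 3, 3 and 0 in SETBP1+NRAS. Every mutant library lay below every empty library. Tph1 passed the filter on low counts only through the empty group, so it had to differ. Its tests against empty are therefore no support, and only ratios of summed counts are given, with exact 95% counting intervals. The level was 157-fold lower in SETBP1 (27.7 to 6222), where it rests on 1 count, 9.16-fold lower in NRAS (5.47 to 16.4) and 23.9-fold lower in SETBP1+NRAS (10.8 to 66.2). The comparison of NRAS with SETBP1 was past the threshold (adjusted p = 0.0181) but not without NRAS replicate 2 (adjusted p = 0.0917).

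Gata2, a transcription factor of stem cells and of the mast cell and basophil lineages, changed least among the genes called in all 3 mutant groups. Across libraries the normalised CPM was 170, 158 and 174 in empty, 132, 83.4 and 82.2 in SETBP1, 95.004, 118 and 144 in NRAS, and 80.3, 80.2 and 77.2 in SETBP1+NRAS. All 9 mutant libraries lay below all 3 empty libraries, and SETBP1 and NRAS overlapped. The log2 change against empty was -0.75 (SE 0.17, adjusted p = 0.0141) in SETBP1, -0.49 (SE 0.17, adjusted p = 0.0398) in NRAS and -1.08 (SE 0.17, adjusted p = 2.18e-04) in SETBP1+NRAS. The SETBP1 call was lost without empty replicate 1 (adjusted p = 0.0566) or 3 (0.0660). The NRAS call was lost when any 1 of 8 libraries was left out, with an adjusted p of 0.169 without NRAS replicate 1. NRAS against SETBP1 (0.26, adjusted p = 0.241) became a call without SETBP1 replicate 1 (0.51, adjusted p = 0.00739), and SETBP1+NRAS against SETBP1 (-0.33, adjusted p = 0.146) without SETBP1 replicate 3 (-0.45, adjusted p = 0.0223).

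Set side by side per length, the order of the 10 genes changed between groups. In empty, Prss34 and Mcpt8 (631 ± 29.2 normalised CPM per kilobase, SD, n = 3) led, followed by Fcer1a at 117 ± 7.68 and Cpa3 at 114 ± 7.56, whose ranges overlapped. In SETBP1+NRAS, Mcpt8 (90.2 ± 23.2) and Prss34 (77.5 ± 25.3) overlapped, and Hdc at 32.4 ± 5.47 came next. Gzmb at 15.5 ± 2.45, Gata2 at 14.7 ± 0.324 and Cpa3 at 14.5 ± 3.58 followed, while Fcer1a stood at 3.64 ± 1.02.

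**Figure D2:**
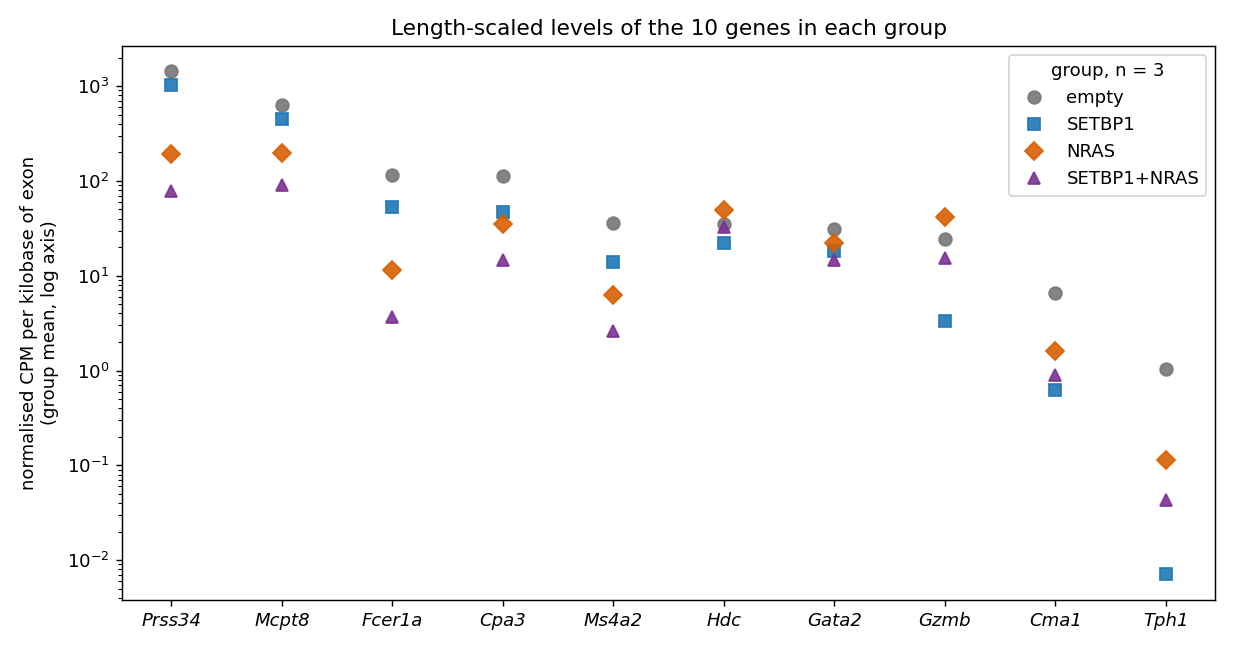
Group means of normalised CPM per kilobase of exon (vertical log axis) for the 10 genes (horizontal axis) in the 4 groups (n = 3). Prss34 and Mcpt8 are highest in every group, the groups lie far apart for Fcer1a and close together for Hdc and Gata2, and the Tph1 point of SETBP1 rests on 1 count.

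The first comparison asked what mutant SETBP1 does alone. Against empty, 8 of the 10 genes were past the threshold and lower, and none was higher. Over all 10993 genes tested, 6.55% were called lower and 8.31% higher. The 10 genes were chosen with earlier results of these data known. Counts set beside such shares, here and below, are therefore a description and no support. The 8 were Cma1, Tph1, Gzmb, Cpa3, Fcer1a, Ms4a2, Hdc and Gata2, with Prss34 and Mcpt8 the exceptions. Tph1, which passed the filter on low counts only through empty, is among them here and in the other comparisons with empty; of the other 9 genes, 7 were called lower in each of the 3. In all 10 genes every SETBP1 library lay below every empty library, as it did for 16.5% of all genes tested. The median log2 change of those 9 genes was -1.15, against -0.01 over all genes tested. The count was 5 without empty replicate 1 or without empty replicate 3. Fitted on only the empty and SETBP1 libraries, it was 5 as well, with Cma1 (adjusted p = 0.0790), Gzmb (0.0657), Hdc (0.0877) and Gata2 (0.0850) lost and Mcpt8 (0.0465) gained. The filter on low counts kept all 10 genes, but Gzmb did not reach its minimum count in SETBP1, nor Cma1 in SETBP1 or SETBP1+NRAS, nor Tph1 outside empty.

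Mutant NRAS alone gave 8 genes past the threshold and lower against empty, where 15.5% of all genes were called lower. These were Cma1, Tph1, Cpa3, Mcpt8, Fcer1a, Ms4a2, Prss34 and Gata2. In the same 8 genes every NRAS library lay below every empty library, as for 27.9% of all genes, and in Gzmb and Hdc every NRAS library lay above, as for 28.4%. The median log2 change of the 9 genes other than Tph1 was -1.70. Among NRAS libraries, replicate 3 was the highest in 8 of the 10 genes and replicate 1 the lowest in 9.

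Both mutants together gave 8 genes past the threshold and lower against empty, with 19.8% of all genes called lower. They were Cma1, Tph1, Cpa3, Mcpt8, Fcer1a, Ms4a2, Prss34 and Gata2, and the median log2 change of the 9 genes other than Tph1 was -2.84. Every SETBP1+NRAS library lay below every empty library in 9 genes, against 30.5% of all genes, with Hdc the exception, and in no gene were all 3 above, against 30.7%. These 3 comparisons share the empty libraries.

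Adding SETBP1 to NRAS is the comparison the study's title points to. SETBP1+NRAS was lower than NRAS past the threshold in 3 genes, Mcpt8, Fcer1a and Prss34, where 1.38% of all genes were called lower. None was higher, against 0.528%, and 1.91% of all genes were called in either direction. In 8 genes, all but Tph1 and Hdc, every SETBP1+NRAS library lay below every NRAS library, as for 12.9% of all genes. The median log2 change of the 9 genes other than Tph1 was -1.24, against 0.00 over all genes. Cpa3 (-1.28, SE 0.31, adjusted p = 0.0580) and Ms4a2 missed the threshold narrowly. Without SETBP1 replicate 3, Gzmb, Cpa3 (adjusted p = 0.00262), Ms4a2 (0.00468), Gata2 (0.0103) and Hdc (0.0181) were called too. The count was then 8, when 7.52% of all genes were called in either direction, 6 without SETBP1 replicate 1, 5 without NRAS replicate 1 and 2 without NRAS replicate 3.

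Adding NRAS to SETBP1 lowered 5 of the 10 genes past the threshold and raised 2. The number raised is near the share over all genes. SETBP1+NRAS was lower than SETBP1 in Cpa3, Mcpt8, Fcer1a, Ms4a2 and Prss34, where 21.5% of all genes were called lower, and higher in Gzmb and Hdc, where 20.9% were called higher. The libraries of the groups did not overlap in 6 genes that were lower, those 5 and Gata2, against 24.0% of all genes, and in Gzmb, which was higher, against 24.8%. The log2 changes were -3.73 (SE 0.25, adjusted p = 9.22e-08) for Prss34 and -3.85 (SE 0.25, adjusted p = 5.97e-08) for Fcer1a. Hdc rose by 0.54 (SE 0.19, adjusted p = 0.0371), a call that was lost under library size scaling (adjusted p = 0.0913), without SETBP1 replicate 3 (adjusted p = 0.0560) and when any 1 of 6 other libraries was left out, with an adjusted p of 0.147 without SETBP1+NRAS replicate 3.

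NRAS and SETBP1, compared directly, differed in both directions. NRAS was lower in 4 genes, Mcpt8, Fcer1a, Ms4a2 and Prss34, where 20.1% of all genes were called lower. It was higher in 3 genes, Tph1, Gzmb and Hdc, where 20.8% were called higher, so the number higher is near that share. Tph1 passed the filter on low counts only through empty, and of the other 9 genes 2 were higher. Without overlap of libraries, 4 genes were lower, against 23.4% of all genes, and 4 were higher, Tph1, Gzmb, Hdc and Cma1, against 25.0%. The lowest and highest differences on the log2 scale were -2.42 (SE 0.24, adjusted p = 4.42e-06) for Prss34 and 3.67 for Gzmb. Cpa3 and Gata2 did not pass the test, with the exceptions given above for single libraries left out.

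**Figure D3:**
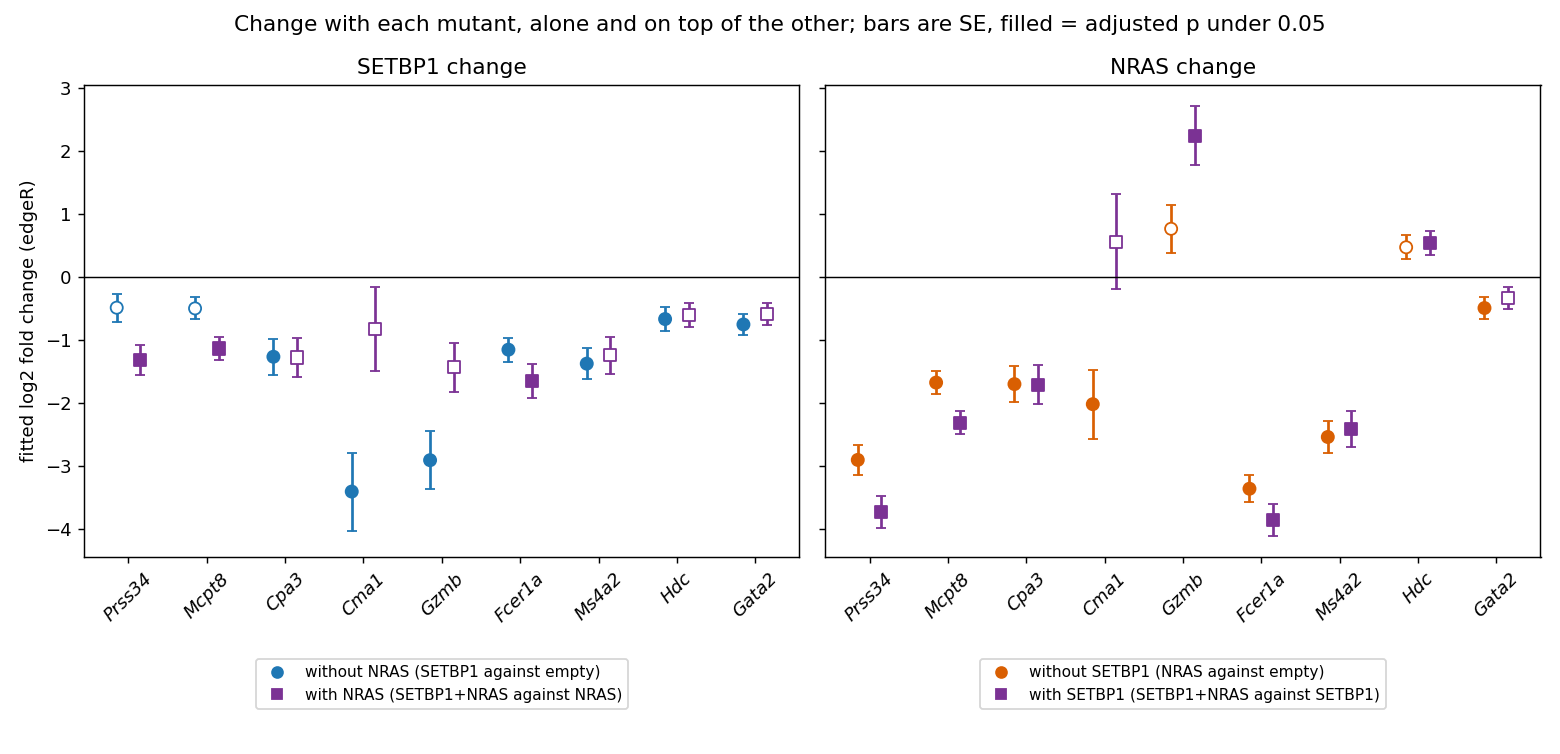
Fitted log2 fold change (vertical axes, bars are SE) of 9 of the 10 genes (horizontal axes) for SETBP1 without and with NRAS (left) and for NRAS without and with SETBP1 (right), from 3 libraries per group; filled symbols are past the threshold. Tph1 is not drawn because its fitted changes rest on 1 count in SETBP1, and Gzmb and Hdc are the genes above 0 in both NRAS comparisons.

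Whether the SETBP1 change differed with and without NRAS was tested by an interaction term. None of the 10 genes passed, against 0.0455% of all genes. At an unadjusted p under 0.05, 5 of the 10 did (edgeR), as did 12.9% of all genes tested. Tph1, which passed the filter on low counts only through empty, is among the 5, and of the other 9 genes 4 did. The 5 fell to 2 without SETBP1+NRAS replicate 2 and to 3 without NRAS replicate 3. They were Cma1, Tph1, Gzmb, Mcpt8 and Prss34. The first 3 had a smaller fall with NRAS than without it (Cma1 2.58 and Gzmb 1.48 on the log2 scale) and Mcpt8 (-0.64) and Prss34 (-0.83) a larger one. DESeq2 called 1 gene, Tph1 (adjusted p = 0.0318), which rests on the empty group's counts, and limma-voom none. Without SETBP1 replicate 2, edgeR called Gzmb (2.71, adjusted p = 0.0414).

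Group means in the order empty, SETBP1, NRAS, SETBP1+NRAS were found in 5 of the 10 genes, Cpa3, Mcpt8, Fcer1a, Ms4a2 and Prss34, and in 10.9% of all genes tested. In 4 of them, all but Cpa3, no neighbouring groups overlapped, as in 0.955% of all genes. The pattern of a gene over the 12 libraries was compared by the root mean square difference of its centred log2 CPM. Fcer1a and Prss34 were the closest pair of the 10 genes, at 0.31, followed by Cpa3 and Mcpt8 at 0.39 and Hdc and Gata2 at 0.47.

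Outside the 10 genes, the gene nearest to Prss34 over the 12 libraries was Siglecg (0.36), to Fcer1a Lrg1 (0.41), to Mcpt8 Fstl3 (0.22), to Ms4a2 Clu (0.30) and to Cpa3 Megf9 (0.27). The nearest was Map3k5 (0.20) for Hdc, Afap1 (0.15) for Gata2, Ehd3 (0.63) for Gzmb, Krba1 (0.66) for Cma1 and Tshr (0.93) for Tph1. To the mean of the 10 genes, the nearest 5 were Slc45a3 (0.24), Slc18a2 (0.31), Arsb (0.31), Ets1 (0.31) and Sorl1 (0.32). Slc18a2 encodes the vesicular transporter that loads histamine and serotonin into granules.

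Other genes of the pathway were read from lists of known function, and their counts stand beside shares over all genes called lower and higher of 6.55% and 8.31% in SETBP1, 15.5% and 17.0% in NRAS and 19.8% and 20.8% in SETBP1+NRAS, each against empty. Of 17 listed genes for making and storing amines and eicosanoids, 15 were tested, and 4 were lower and 1 higher in SETBP1 against empty, 5 lower and 4 higher in NRAS, and 6 lower and 4 higher in SETBP1+NRAS. Median log2 changes of the list were -0.10, -0.29 and -0.13, against -0.01 over all genes tested in each. Slc18a2 fell in each, from 94.4 ± 8.20 normalised CPM in empty to 45.4 ± 20.2 in SETBP1 (adjusted p = 0.0183), 39.7 ± 11.6 in NRAS (adjusted p = 0.00216) and 17.6 ± 2.32 in SETBP1+NRAS (adjusted p = 1.15e-05; SD, n = 3, edgeR). It was also lower in SETBP1+NRAS than in NRAS (log2 change -1.17, SE 0.28, adjusted p = 0.0494). Alox5, the enzyme that starts leukotriene synthesis, fell in SETBP1 against empty (-0.78, adjusted p = 0.00270) and in SETBP1+NRAS against NRAS (-0.70, adjusted p = 0.00876). In the opposite direction, Ptgs2, the inducible prostaglandin synthase, rose from 0.695 ± 0.383 in empty to 27.1 ± 5.85 in NRAS (adjusted p = 1.91e-07). Slc6a4, the serotonin reuptake transporter, rose from 0.969 ± 0.347 to 5.94 ± 0.933 (adjusted p = 0.00172), in the group where Tph1 fell.

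Of 20 listed genes that act downstream of the IgE receptor, 19 were tested. In SETBP1 against empty, 4 were lower and 1 higher, against 6.55% and 8.31% of all genes. In NRAS, 5 were lower and 4 higher, against 15.5% and 17.0%. In SETBP1+NRAS, 8 were lower and 4 higher, against 19.8% and 20.8%. Median log2 changes of the list were -0.18, -0.13 and -0.23, against -0.01 over all genes in each. The numbers higher are near the shares over all genes. The next 3 genes are given for SETBP1+NRAS against empty. Rab27b, a GTPase of granule release, fell by 2.51 (SE 0.36, adjusted p = 9.54e-05). The kinase gene Fyn rose by 1.82 (SE 0.11, adjusted p = 2.53e-08) and the adaptor gene Lat2 by 1.71 (SE 0.18, adjusted p = 4.33e-06). Lat, another adaptor, was the 1 gene of the list called between SETBP1+NRAS and NRAS (-1.05, SE 0.16, adjusted p = 0.00354). Over all genes, 1.91% were called there in either direction. These genes also act in other blood cells, and Fyn, Lat2 and Fcer1g moved against Fcer1a and Ms4a2.

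Of 21 listed surface receptors and cytokines, 17 were tested, with 2 lower and 2 higher in SETBP1 against empty, 8 lower and 2 higher in NRAS, and 7 lower and 3 higher in SETBP1+NRAS, with median log2 changes of 0.06, -0.29 and -0.47. The numbers higher in NRAS and SETBP1+NRAS are no larger than the shares over all genes. Kit fell from 65.3 ± 10.00 normalised CPM in empty to 25.8 ± 3.35 in NRAS (adjusted p = 0.00771) and 13.2 ± 0.741 in SETBP1+NRAS (adjusted p = 1.69e-04; SD, n = 3, edgeR), and measured 33.7 ± 19.4 in SETBP1 (adjusted p = 0.0658). Cd200r3, a receptor of the same list, fell to 17.8 ± 6.51 in NRAS (adjusted p = 7.19e-04) and 19.0 ± 2.31 in SETBP1+NRAS (adjusted p = 9.02e-04). Its log2 change between SETBP1+NRAS and NRAS was 0.09 (adjusted p = 0.958), where Mcpt8, Fcer1a and Prss34 fell.

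All 19 listed transcription factors of the lineages were tested. In SETBP1+NRAS against NRAS, 1 was lower and 1 higher, where 1.38% of all genes were called lower and 0.528% higher. Gata1, which acts in basophils, mast cells, eosinophils and erythroid cells, fell from 16.3 ± 2.53 normalised CPM in NRAS to 4.67 ± 1.30 in SETBP1+NRAS (log2 change -1.80, SE 0.21, adjusted p = 7.01e-04). Meis1 rose from 29.2 ± 6.53 to 58.2 ± 4.002 (log2 change 0.99, SE 0.18, adjusted p = 0.0101). Gata2 gave a log2 change of -0.59 (SE 0.17) there, with an adjusted p of 0.124, and was called without SETBP1 replicate 3 (adjusted p = 0.0103), without SETBP1 replicate 1 (0.0197) or with DESeq2 (0.0475). Against empty, 5 factors were lower and 4 higher in SETBP1+NRAS, near the 19.8% and 20.8% of all genes, and Cebpa was among the lower (-1.08, adjusted p = 3.98e-06). The list's median log2 change there was -0.15.

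Of 10 other listed proteases of these cells, only 3 had enough counts to be tested: Tpsb2, Tpsg1 and Ctsg. Ctsg is also counted below among the early granulocyte genes. None of the 3 passed the test in SETBP1 against empty, 3 were lower in NRAS and 2, Tpsg1 and Ctsg, in SETBP1+NRAS. Tpsg1, a membrane-bound tryptase, fell from 12.3 ± 1.57 normalised CPM in empty to 1.09 ± 0.503 in NRAS (adjusted p = 1.38e-05) and 1.13 ± 0.563 in SETBP1+NRAS (adjusted p = 9.67e-06), while SETBP1 measured 11.4 ± 3.51 (SD, n = 3, edgeR). Cma1, Mcpt8 and Gzmb share their chromosome 14 cluster of 15 protein-coding genes, 320.8 kb long, with Ctsg, cathepsin G of early granulocytes. Ctsg measured 1079 ± 39.7 in empty and 663 ± 32.4 in SETBP1+NRAS, a log2 change of -0.70 (SE 0.08, adjusted p = 1.48e-05), beside -2.81 for Mcpt8. Gzmc, another granzyme of the cluster, had no count in empty or SETBP1, 36 counts over the 3 NRAS libraries and 5 over SETBP1+NRAS. Gzmc passed the filter on low counts only through NRAS, so it had to differ there, and its tests are no support. Its mean in NRAS was 12.7-fold above a limit of 3 counts over the empty group. That ratio leaves out the counting error of the 36 counts. The other 10 genes of the cluster had at most 2 counts in a library, and 7 of them had none.

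Markers of other cell types moved as well, and their part in the results on these 10 genes was not tested. Over all genes, 6.55% were called lower and 8.31% higher in SETBP1 against empty. The shares were 15.5% and 17.0% in NRAS and 19.8% and 20.8% in SETBP1+NRAS. Of 6 tested genes of early granulocytes, 2 were lower in SETBP1, 5 in NRAS and 6 in SETBP1+NRAS against empty. The list's summed level ranged from 24639 to 27271 normalised CPM in empty, 18277 to 20030 in SETBP1, 9913 to 11529 in NRAS and 5779 to 6326 in SETBP1+NRAS. Of 9 tested late neutrophil genes, 8 were lower in SETBP1, 5 in NRAS and 8 in SETBP1+NRAS, with Mmp9 called higher in NRAS. Their sum fell from 11172 to 12592 in empty to 1969 to 2469 in SETBP1+NRAS. In SETBP1+NRAS against NRAS, 5 of the 6 early granulocyte genes and 7 of the 9 late neutrophil genes were lower. None of either list was higher there, and over all genes 1.38% were called lower and 0.528% higher. The early granulocyte sums had the same order of groups as the share of the 10 genes, without overlap, and so did the cytotoxic lymphocyte sums given below. Monocyte and macrophage genes summed to 4436 to 4696 in empty and 4144 to 4775 in SETBP1+NRAS, with 5 of 9 higher and 1 lower there.

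For eosinophils, which share Gata1 with basophils, 5 of 9 listed genes were tested and 1, 1 and 3 were lower in SETBP1, NRAS and SETBP1+NRAS against empty. Their sum was 201 to 349 normalised CPM in empty, 15.1 to 249 in SETBP1, 137 to 273 in NRAS and 28.3 to 115 in SETBP1+NRAS. The 1 eosinophil gene lower in NRAS is near the 15.5% of all genes called lower there. Of 13 listed megakaryocyte and erythroid genes 9 were tested, and 2 were higher and none lower in SETBP1, 4 lower and none higher in NRAS, and 7 lower and 2 higher in SETBP1+NRAS. The sum was 257 to 283 in empty, 320 to 560 in SETBP1, 189 to 213 in NRAS and 269 to 294 in SETBP1+NRAS. The 2 megakaryocyte and erythroid genes higher in SETBP1+NRAS are near the 20.8% of all genes called higher there. The globin genes Hba-a1 and Hbb-bs were at 0.

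For Gzmb, the other known sources were cytotoxic lymphocytes and plasmacytoid dendritic cells. Of 15 cytotoxic lymphocyte markers, Cd3e, Cd8a, Ncr1 and Gzmd had no count, Gzma had at most 1 and Prf1 at most 14 counts in a library, and 3 were tested. Their sum, 374 to 417 normalised CPM in empty, 221 to 270 in SETBP1, 111 to 115 in NRAS and 47.6 to 52.4 in SETBP1+NRAS, was mostly Nkg7, which fell from 395 ± 23.5 to 48.4 ± 2.70 (adjusted p = 7.02e-11, edgeR; SD, n = 3). Siglech, which defines plasmacytoid dendritic cells, had at most 3 counts in a library. The 8 markers of those cells summed to 246 to 286 normalised CPM in empty, 383 to 512 in SETBP1, 328 to 391 in NRAS and 343 to 431 in SETBP1+NRAS. Only 3 of them were tested, and the sum was mostly Bst2, at 212 ± 20.0 in empty and 376 ± 63.4 in SETBP1 (SD, n = 3).

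**Figure D4:**
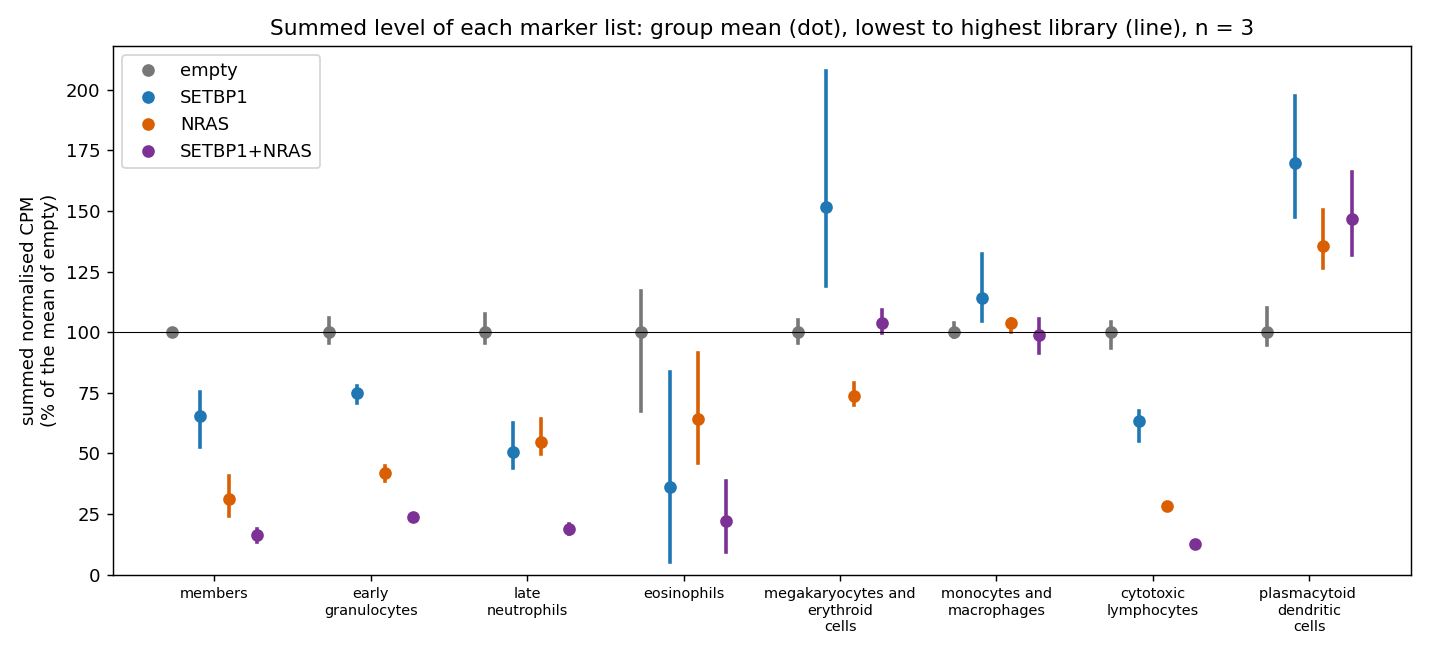
Summed normalised CPM of each marker list (horizontal axis) as a percent of its mean in empty (vertical axis), with a dot for the group mean and a line from the lowest to the highest of 3 libraries. The 10 mast cell and basophil genes stand at 65.6% in SETBP1, 31.3% in NRAS and 16.4% in SETBP1+NRAS, and early granulocyte genes at 75.1%, 42.1% and 23.6%. Cytotoxic lymphocyte genes, whose sum is mostly Nkg7, stand at 63.2%, 28.3% and 12.7%.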

How the data were processed

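The deposited table gives raw counts, as whole numbers, for 19910 symbols in 12 libraries; 19907 symbols match GENCODE M21. Per the labels' protocols, total RNA was prepared with a micro-scale kit and an ultra-low-input SMART-Seq chemistry. The submitters' processing notes name mm10, STAR and DESeq2, without versions. Annotation, strand and multimapping rules are not given in the sources used here.

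From the counts, edgeR 4.0.16 (R 4.3.3) with TMM scaling and filterByExpr (minimum count 10, minimum total 15) kept 10993 genes holding 99.9% of counts. All 12 libraries entered 1 quasi-likelihood fit of 4 group means, tested by F. P-values are two-sided, Benjamini-Hochberg adjusted over all genes tested, with a threshold of 0.05. SE is the log2 change over the root of F. Normalised CPM uses TMM; per-kilobase values use GENCODE exon length. The intervals and the 3-count floor cover counting error only. Scripts were tested on simulated data. Alternatives were DESeq2 1.42.0, limma-voom 3.58.1, other scalings, filters and fits, and leaving out each library. Replicates differed by more than counting noise, which does not show that they came from separate cultures; each was counted as 1 library.

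The 10 genes and the lists were chosen with earlier results of these data known. Beside them, Nras and Setbp1 are named, the nearest gene to each member and the 5 nearest to their mean, and from each list and comparison up to 3 genes with the largest change past the threshold and no overlap of groups; markers at or near 0, and Kit, Cd200r3, Tpsb2, Bst2, Fcer1g, Cebpa, Alox5, Ctsg, Siglech and the protease cluster, were named after their values were seen where that rule did not reach them.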

Additional observations from a re-analysis of the deposited data

How the results depend on the processing

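Over single genes, 1419 results kept their direction and side of the threshold, 48 gained and 47 lost the call, and 12 changed sign. Of the 10 genes, SETBP1 against empty called 5 when fitted on only the groups compared and 5 at a threshold of 0.01, and 5 to 9 when 1 library was left out. SETBP1+NRAS against NRAS called 6 with DESeq2, 6 without a filter on low counts, 8 on only the groups compared, and 2 to 8 when 1 library was left out. The interaction called 1 with DESeq2 and 0 to 1 when 1 library was left out. Leaving out 1 library gave 6 to 10 genes for NRAS against empty, 8 to 9 for SETBP1+NRAS against empty, 6 to 7 for SETBP1+NRAS against SETBP1 and 6 to 8 for NRAS against SETBP1. Over all genes, SETBP1 against empty called 1633, and 390 to 3191 when 1 library was left out, 110 on only the groups compared and 379 at a threshold of 0.01; SETBP1+NRAS against NRAS called 210, and 93 to 836, 883 (394 higher, 489 lower, against 58 and 152) and 86, with 379 under DESeq2 and 70 higher and 114 lower under limma-voom. Counts for NRAS against empty, SETBP1+NRAS against SETBP1 and NRAS against SETBP1 were 3576, 4661 and 4495, and 2289, 3043 and 2885 at the threshold of 0.01; the latter pair called 3083 and 2848 on only the groups compared. The interaction called 5, and 81 with DESeq2, 3 with limma-voom, 14 without a filter, 1 at 0.01 and 1 to 110 when 1 library was left out. Changes of sign were none of a called value: Cma1 in SETBP1+NRAS against SETBP1 (-0.030 without SETBP1 replicate 3, range over left-out libraries -0.030 to 1.18), and in the interaction Cpa3 (0.11 with limma-voom, -0.27 to 0.44 when 1 library was left out), Ms4a2 (-0.10 to 0.51) and Hdc (-0.095 to 0.30). The cause was not tested. Under scaling by library size, the median log2 change of all genes was -0.10 in NRAS and -0.13 in SETBP1+NRAS against empty. By TMM each was -0.01. With that scaling, NRAS against empty called 1379 genes higher and 2265 lower (1868 and 1708 by TMM). SETBP1+NRAS called 1656 and 2908 against empty (2282 and 2180) and 1720 and 2888 against SETBP1 (2293 and 2368). The calls of the 10 genes held except Hdc in SETBP1+NRAS against SETBP1, also lost under upper-quartile scaling (adjusted p = 0.0599, edgeR). With the replicate number as a block, 7, 7, 8, 3, 6, 7 and 0 genes were called in the order of the report; Hdc lost its call in SETBP1 against empty (0.0525) and in SETBP1+NRAS against SETBP1 (0.0513), and Gata2 in NRAS against empty (0.0610). Same-numbered libraries did not deviate together (correlations -0.127 to 0.124, 18 pairs). With 3 libraries per group, this cannot show whether the numbers mark a shared mouse, culture or batch. Depth limits Cma1 and Tph1 most.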
